A study of Homo sapiens with 25 samples.

Results

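The mitochondrial ribosomal protein genes are the nuclear genes whose symbols start with MRPL or MRPS, followed by a number and at most 1 letter from A to C. They were taken from the gene table by that pattern, with a normalized count of at least 10 in at least 2 of the 25 libraries. All 78 genes that match the pattern passed this minimum, 49 with an MRPL and 29 with an MRPS symbol, out of 22994 genes that passed it and 36755 in the table. The mitochondrial ribosome translates the few messenger RNAs of the mitochondrial genome, which encode core subunits of the respiratory chain and of ATP synthase. Its ribosomal RNAs come from mitochondrial DNA, whereas each of its proteins is encoded in the nucleus, made in the cytosol and imported. Part of these proteins descend from the bacterial ribosome, and the others were added during the evolution of mitochondria. By position in the assembled ribosome 51 of the 78 belong to the large subunit and 26 to the small subunit. MRPS36 is in neither, since its product is a subunit of the 2-oxoglutarate dehydrogenase complex. MRPS30 and MRPS18A carry small subunit symbols but sit in the large subunit and were counted there.

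The cells were Jurkat, an established human line from a T-cell leukaemia, grown in media with graded amounts of histidine, one of the essential amino acids. Day 3 had 2 libraries at 100% histidine (replicates 1 and 3) and 3 libraries each at 50%, 25%, 12.5% and 0%. Day 6 had 3 libraries each at 100%, 50% and 25%, and 2 at 12.5%. The labels name no other treatment and no genetic change, and whether replicates are separate cultures is not stated in them. The p-values therefore measure the spread between these libraries, and part of it may be technical. Differences were taken after adding 1 and converting to log2, so changes of weakly expressed genes come out too small, and a gene is called when its adjusted p (limma, Benjamini-Hochberg over all tested genes) is under 0.05.

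All 12 T-lineage markers were measured in every library, CD3E between 15440 and 30630 normalized counts and LCK between 11510 and 18630. Their summed level lay between 54100 and 82280 and was highest at 0% histidine on day 3 (79150 to 82280, against 54100 to 58750 at 100%). Of 7 erythroid markers 4 passed the minimum, and their summed level was 3530 to 5043 at 50% on day 3 against 281.1 to 528.2 at 100%. Single libraries of other groups reached as high, up to 3832 at 12.5% and 4935 at 0% on day 3 and 3842 at 50% and 4952 at 25% on day 6, while 25% on day 3 (at most 360.2), 100% on day 6 (286.3) and 12.5% on day 6 (390.1) stayed low. Of 4 B-cell markers 2 passed, with a summed level of 217.7 to 269 at 100%, 558.6 to 675.5 at 25%, 643.6 to 650.4 at 12.5% and 601.2 to 659.9 at 0% on day 3. On day 6 it was 263 to 290.4 at 100%, 318.2 to 371.6 at 25% and 336.8 to 385.3 at 12.5%. Among the B-cell markers CD79A ranged from 192.2 to 655.4 over all libraries, and MS4A1, a marker of mature B cells, reached at most 3.013. Fibroblast and matrix markers (7 of 7 measured) ranged from 1782 to 12370 with no order by histidine. Heart and skeletal muscle markers summed to 52310 in replicate 2 of 25% on day 6 and to at most 200.8 elsewhere. Replicate 3 of 100% and of 50% on day 6 were also taken to stand apart from the others of their groups over all genes, for which no value is given here. The part of these differences in the results below was not tested, except where a value without a library is given.

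The 78 genes lie on 21 chromosomes (GENCODE 29, GRCh38). Of these, 29 (37.2%) have the start of a protein-coding gene on the opposite strand within 1000 bases of their own, against 13% of 19940 protein-coding genes. MRPL46 and MRPS11 form such a pair with each other, MRPL18 pairs with the chaperonin gene TCP1, and MRPS12 with SARS2, the mitochondrial seryl-tRNA synthetase. In 30 of the 78 an exon overlaps another gene of the table, in 22 on the opposite strand. The libraries were strand-specific, but whether strand was used in counting is not given in the sources used here, so reads of such overlapping genes may not be separable. A further 21 entries of the table are pseudogenes of members. All but 1 stayed at or under 71.33 normalized counts, and MRPS31P5, a copy of MRPS31, reached 826.6, so values of MRPS31 are uncertain to the extent that reads of the 2 copies cannot be told apart.

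RefSeq promoter sequences (GRCh38.p14, 250 bases before to 50 after the start) were at hand for 69 of the 78 genes. MRPL2, MRPL10, MRPL13, MRPL15, MRPL21, MRPL23, MRPL35, MRPS28 and MRPS36 have none. On both strands, 19 of 69 (27.5%) held the letters ATGGCGGC, the core of the element bound by YY1, against 5.35% of 13597 tested genes and 3.21% of all 27305 promoters. In 16 of the 19 the match begins at the annotated start codon, so that the same letters are also the first codons of the protein. The ETS core CCGGAAGT was found in 11 (15.9%), against 7.55% of tested genes and 4.44% of all. The NRF1 core GCATGCGC was found in 6 (8.7%, against 4.9% and 3.27%), the E-box CACGTG in 6 (8.7%, against 9.47% and 7.43%) and the ATF4 composite TGATGNAA in 1 (1.4%, against 1.82% and 3.67%). These are matches of letters and not measured binding.

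The windows of 30 bases that follow show both of the more frequent cores in members that were called at 25% histidine on day 3. The cores are in capitals, 5′ to 3′ on the strand of the gene. Each core is shown for called members of 1 direction only, so the windows cannot show a relation of core to direction. MRPL38, shown for its YY1 core, also holds an ETS core, and MRPS18B also holds an NRF1 core. The first 5 hold the YY1 core in members that were higher at 25% histidine on day 3: MRPS15 (chr1:36464339-36464368, minus strand), MRPS18A (chr6:43687761-43687790, minus), MRPS18B (chr6:30617855-30617884, plus), MRPL38 (chr17:75904857-75904886, minus) and MRPS10 (chr6:42217831-42217860, minus). In all of these but MRPS15 the capitals begin at the start codon. The last 4 hold the ETS core, on either strand, in members that were lower there: MRPL3 (chr3:131502985-131503014, minus), MRPL16 (chr11:59810767-59810796, minus), MRPS22 (chr3:139343903-139343932, plus) and MRPL53 (chr2:74472734-74472763, minus).
MRPS15: cctgggccagcATGGCGGCgcccatgtaac
MRPS18A: ggtttttgaagATGGCGGCcctcaaggctc
MRPS18B: cgtacgtcaagATGGCGGCgtctgtattaa
MRPL38: ccggagggaagATGGCGGCgccctggtggc
MRPS10: ggaccggcaagATGGCGGCgcggacagcgt
MRPL3: tgtaaaacgcaCCGGAAGTgggtccggcgg
MRPL16: gagtgaacacaACTTCCGGccccactgagc
MRPS22: gggcccggaagACTTCCGGccctttccgcc
MRPL53: gcagccggcggCCGGAAGTctatcccgcag

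Every member was expressed in every library, from 154.9 normalized counts (MRPS11) to 3990 (MRPL37). Over the 9 groups the highest group mean of a member was a median of 1.58 times its lowest, against 2.14 times over all tested genes. The ratio was greatest in MRPS2 (2.96), MRPL13 (2.72), MRPS6 (2.61) and MRPS25 (2.42). It was smallest in MRPS14 (1.17), MRPL9 (1.25), MRPL19 (1.26) and MRPL50 (1.3). Summed over the 78 genes, day 3 groups averaged 86650 to 92930 normalized counts and day 6 groups 71340 to 79680. The sum at 0% on day 3, 87870 ± 2563 (SD, n = 3), differed from that at 100%, 86940 ± 7734 (n = 2), by less than the spread between libraries. At 12.5% on day 6 it was 71340 ± 636.1 (n = 2) against 75620 ± 2117 (n = 3) at 100%. Single members moved apart in both directions, as the heat map of all 78 shows. In bulk RNA fewer cells of a kind and less RNA per cell cannot be told apart.

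**Figure D1:**
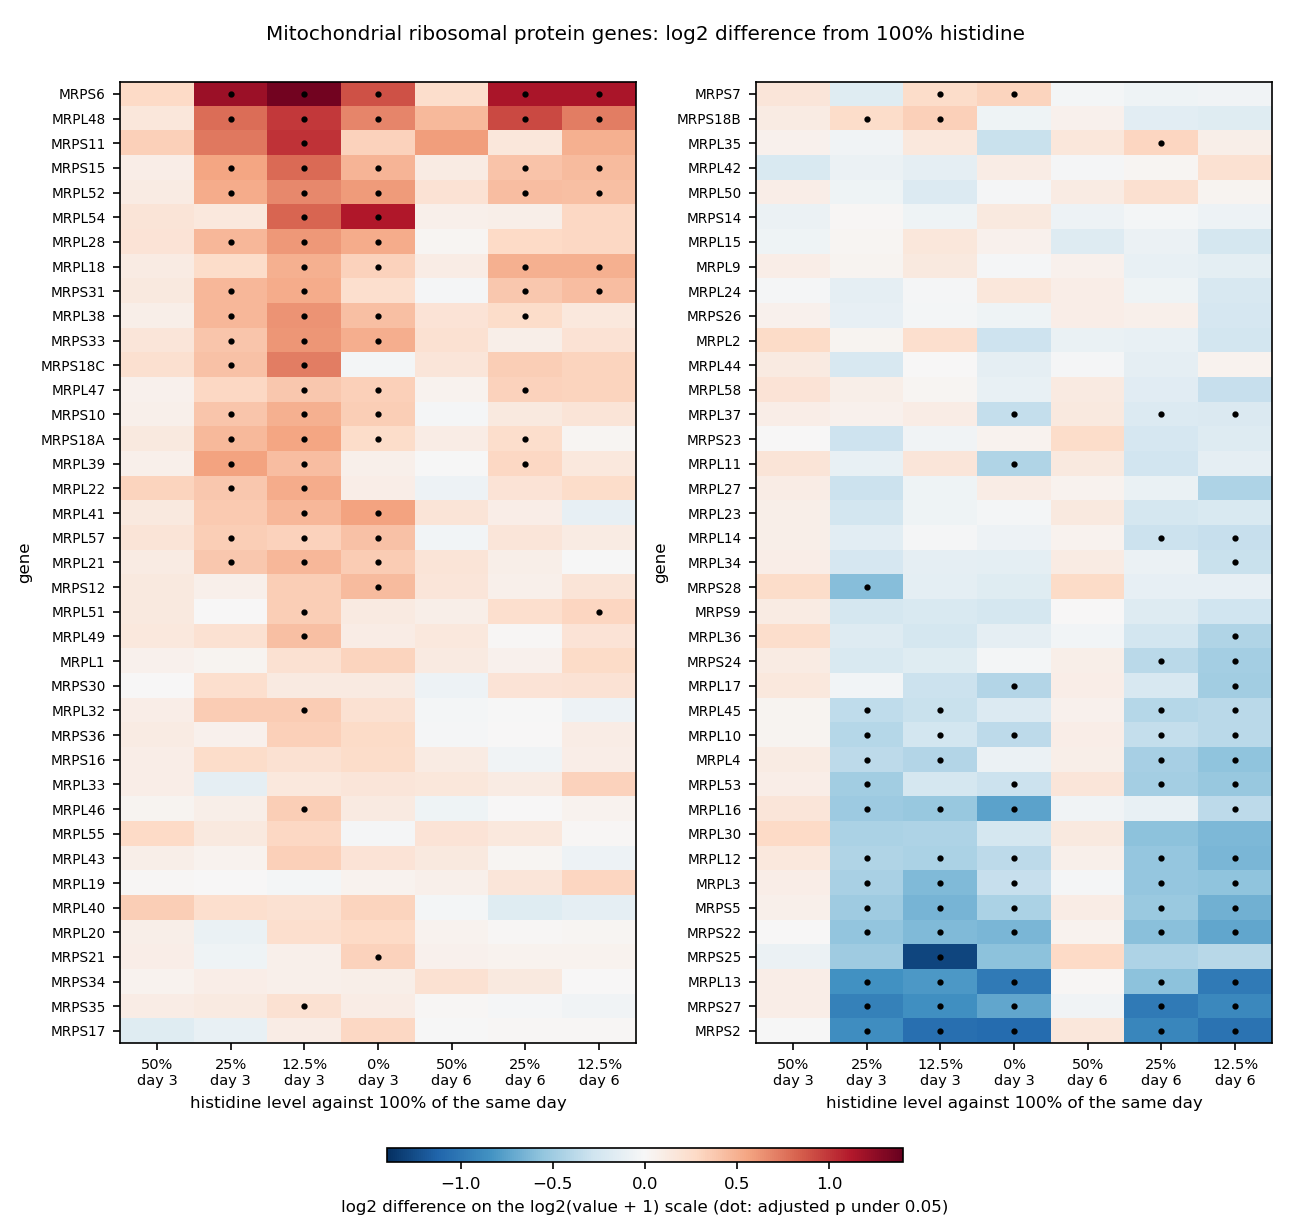
Log2 differences of the 78 members (rows, ordered by their mean over the 5 comparisons of 25% and below) at each restricted histidine level against 100% of the same day (columns), red higher and blue lower, with a dot at an adjusted p under 0.05. The columns of 50% hold no dot on either day, and MRPS6 and MRPS2 mark the 2 ends of the order.

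At 50% histidine no member was called against 100% on either day. On day 3, 0% of all tested genes passed limma's test, and 0 of 78 members did, with 4 at an unadjusted p under 0.05. The log2 differences of the members ran from -0.21 to 0.34 with a median of 0.1 (all genes 0.01), and 71 of 78 were above 0. These differences are not independent, since all share the 2 libraries at 100%. Summed over the members, those 2 libraries were at 81470 and 92410, and the libraries at 50% at 89470 to 98880. The share of all genes above 0 was not taken. On day 6, 0.00435% of all genes passed and 0 members, with 8 at an unadjusted p under 0.05. The median was 0.08 (all genes 0.01) and the range from -0.18 to 0.59. Of these 8, MRPL48 was at 0.45 (SE 0.108, limma's unadjusted p = 0.000307, adjusted p = 0.34) and MRPS6 at 0.24 (unadjusted p = 0.024). MRPS6 was at 0.275 on day 3 (unadjusted p = 0.023). The difference between the days in this comparison was called for 0.00435% of all genes and for 0 members (2 at an unadjusted p under 0.05). MRPL3, a protein near the peptidyl transferase centre of the large subunit, illustrates this level: its libraries read 3713, 3412 and 3488 at 50% on day 3 and 3267 and 3364 at 100% (log2 0.09, SE 0.064, adjusted p = 1). On day 6 they read 3024, 3293 and 3026 at 50% and 3037, 3302 and 3091 at 100% (log2 -0.01, SE 0.057). MRPL11 (0.18 on day 3, 0.13 on day 6), MRPL12 (0.15, 0.07), MRPS12 (0.14, 0.17), MRPS18A (0.14, 0.1), MRPS18B (0.12, 0.06), MRPS18C (0.22, 0.17) and MRPS30 (0.01, -0.07) did not pass either. The summed erythroid markers were 3530 to 5043 at 50% and 281.1 to 528.2 at 100% on day 3.

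At 25% histidine on day 3, 16 members were higher and 13 lower than at 100%, with a median log2 difference of 0.02 over the 78 (all genes 0). Over all tested genes 9.81% were higher and 9.72% lower, below the members' share in both directions. All tested genes include weakly expressed ones, down to the minimum of 10, whereas each member read at least 154.9 in every library. Here and below, no set of genes of like level was compared. Scaling each library to the same total gave 24 higher and 12 lower members, 66.7% of calls upward in place of 55.2%. The split also rested on the 2 libraries at 100%: without replicate 1 it was 9 higher and 15 lower, and without replicate 3 it was 16 and 7.

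MRPS6 (ENSG00000243927.5, chromosome 21, 34073224 to 34143034), a small subunit protein of bacterial descent, had the largest rise. Its libraries read 964.5, 832.1 and 866.3 at 25% and 362 and 411 at 100%, a 2.29-fold rise (log2 1.2, SE 0.114, adjusted p = 1.23e-08), with no overlap between the groups. MRPL48, a mitochondria-specific protein of the large subunit, read 811.3, 733.6 and 762.3 against 430.5 and 464.7 (log2 0.78, SE 0.121, adjusted p = 2.41e-05). MRPL39, also specific to mitochondria, rose by 0.56 (SE 0.091) and MRPS15, of bacterial descent, by 0.56 (SE 0.108), from 887.4 and 1105 to 1502, 1417 and 1454. In each of these 4 genes every library at 25% was above both at 100%.

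The largest fall was that of MRPS27 (ENSG00000113048.16, chromosome 5, 72219409 to 72320646), a pentatricopeptide repeat protein of the small subunit. It read 1572, 1560 and 1642 at 25% against 3003 and 3154 at 100%, a 1.93-fold fall (log2 -0.95, SE 0.077, adjusted p = 5.8e-10). MRPS2 (ENSG00000122140.10, chromosome 9, 135499984 to 135504673), of bacterial descent, fell from 1316 and 1567 to 855.3, 713.6 and 794.5 (log2 -0.87, SE 0.118). MRPL13 (ENSG00000172172.7) fell from 517.4 and 572.2 to 297.7, 287.9 and 317.7 (log2 -0.85, SE 0.15), and MRPS28 from 394.8 and 462.4 to 300, 254.6 and 294.7 (log2 -0.6, SE 0.135, adjusted p = 0.00189). None of the restricted libraries of these 4 genes reached the lower library at 100%. Both MRPL3 (log2 -0.46, SE 0.064) and MRPL12, which forms the stalk that recruits translation factors (-0.42, SE 0.103), were lower too. MRPS18A, MRPS18B and MRPS18C were higher by 0.45, 0.26 and 0.41, whereas MRPL11 (-0.11), MRPS12 (0.07) and MRPS30 (0.23) did not pass. Without replicate 3 of 100% MRPS28 (log2 -0.48, adjusted p = 0.0638) and MRPL12 (-0.29, adjusted p = 0.154) did not pass. MRPS18B lost its call when replicate 1 of 100% (adjusted p = 0.422), replicate 1 of 25% (0.134) or replicate 3 of 25% (0.0714) was left out, and so did MRPS18C (0.327, 0.142 and 0.0733). With the running sample number modulo 8 as a further term (library position, which no label names), MRPL12 (0.0542) and MRPS18B (0.405) did not pass.

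At 12.5% histidine on day 3, 27 members were higher and 12 lower than at 100%, and the median was 0.15 (all genes -0.04). The summed B-cell markers were 643.6 to 650.4 here against 217.7 to 269 at 100%, and their part in these values was not tested. That is 34.6% and 15.4% of the members, against 14.2% of all genes higher and 12% lower. MRPS6 read 1044, 952.2 and 964.9 and was 2.55-fold above 100% (log2 1.35, SE 0.114, adjusted p = 8.99e-10). MRPL48 read 861.8, 945.1 and 857.2 (log2 0.99, SE 0.121), and MRPL54, a mitochondria-specific protein of the large subunit, 435.4, 473.3 and 461.9 against 233.8 and 285.5 (log2 0.82, SE 0.161). All libraries of these 3 genes at 12.5% were above both at 100%.

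MRPS11, a small subunit protein of bacterial descent, read 497.8, 407.2 and 558 at 12.5% on day 3 and 237.9 and 241.9 at 100% (log2 1.01, SE 0.35, adjusted p = 0.0391). This call was lost without replicate 1 (adjusted p = 0.154) or 3 (0.141) of 100% and without replicate 1 (0.0839) or 3 (0.109) of 12.5%, and with library position as a term (0.0996), and its adjusted p had a range of 0.000812 to 0.154 over the alternatives. MRPS25, a mitochondria-specific protein of the small subunit, had the largest fall, from 698.8 and 702.2 to 247.8, 344.3 and 276.4 (log2 -1.29, SE 0.252, adjusted p = 0.000485). It was also the only member called lower at 12.5% than at 25%. MRPS2 (-1.05), MRPS27 (-0.86) and MRPL13 (-0.81) remained below 100%, as did MRPL3 (-0.62) and MRPL12 (-0.45). MRPS18C, the homologue of the bacterial protein S18, was higher by 0.71 (SE 0.14), MRPS18A by 0.55 and MRPS18B by 0.33, while MRPL11 (0.17), MRPS12 (0.35) and MRPS30 (0.13) did not pass. Without replicate 3 of 100% MRPL12 was at -0.31 (adjusted p = 0.0873), and without replicate 1 of 100% MRPS18B was at 0.22 (adjusted p = 0.163), where 15 members were higher and 11 lower. Without replicate 3 of 100% 30 were higher and 8 lower.

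Without histidine on day 3, 18 members were higher and 13 lower than at 100% (23.1% and 16.7%). Over all genes 14.8% were higher and 16.1% lower, so the share of lower members was near the background. The median was 0.09 (all genes -0.02). The summed T-lineage markers were 79150 to 82280 here against 54100 to 58750 at 100%, the B-cell markers 601.2 to 659.9 against 217.7 to 269 and the erythroid markers 417 to 4935 against 281.1 to 528.2, and their part in these values was not tested.

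The largest rise was in MRPL54 (ENSG00000183617.4, chromosome 19, 3762664 to 3768575), which read 534.5, 540.2 and 613.6 at 0% against 233.8 and 285.5 at 100%, a 2.17-fold rise (log2 1.12, SE 0.161, adjusted p = 3.87e-06). MRPS6 read 744.2, 708.6 and 699 (log2 0.89, SE 0.114, adjusted p = 5.88e-07) and MRPL48 763.4, 649.9 and 744.1 (0.68, SE 0.121). No library of these 3 genes at 0% came down to the 100% level. MRPL52 (0.59), MRPL41 (0.56), MRPL28 (0.52), MRPS33 (0.51) and MRPS15 (0.48) were higher as well, the first 2 and MRPS33 specific to mitochondria and the others of bacterial descent. MRPS12, a protein of the decoding centre, rose by 0.44 (adjusted p = 0.0154) and MRPS18A by 0.26 (adjusted p = 0.0343), while MRPS18B (-0.06), MRPS18C (-0.03) and MRPS30 (0.13) did not pass. Without replicate 1 of 100% the adjusted p was 0.118 for MRPL52, 0.085 for MRPL41, 0.0693 for MRPL28, 0.0776 for MRPS15, 0.269 for MRPS12 and 0.251 for MRPS18A, and 7 members were higher and 14 lower. MRPS18A did not pass either without replicate 3 of 100% (0.0505) or replicate 2 (0.0656) or 3 (0.097) of 0%. With library position as a term MRPL28 (0.175), MRPS12 (0.339) and MRPS18A (0.293) did not pass.

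Among the falls at 0% on day 3, MRPS2 read 718.7, 714.2 and 606.8 against 1316 and 1567 (log2 -1.08, SE 0.118, adjusted p = 4.81e-08), a 2.12-fold fall. MRPL13 read 249.1, 298.5 and 275.2 (log2 -0.99, SE 0.15), and MRPL16, of bacterial descent, 899.6, 804.9 and 865.7 against 1281 and 1621 (-0.75, SE 0.107). In these 3 genes the groups did not overlap. MRPS27 (-0.72), MRPS22 (-0.64) and MRPS5 (-0.44) of the small subunit and MRPL11 (-0.42, adjusted p = 0.0111), MRPL17 (-0.41, adjusted p = 0.0134), MRPL12 (-0.37) and MRPL3 (-0.32) of the large subunit were lower too. Without replicate 3 of 100% MRPL11 was at -0.17 (adjusted p = 0.457), MRPL17 at -0.36 (0.122) and MRPL12 at -0.23 (0.212), and 18 members were higher and 9 lower. Without replicate 1 of 0% MRPL11 had an adjusted p of 0.0505, and with library position as a term MRPL11 (0.0677) and MRPL17 (0.0726) did not pass.

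**Figure D2:**
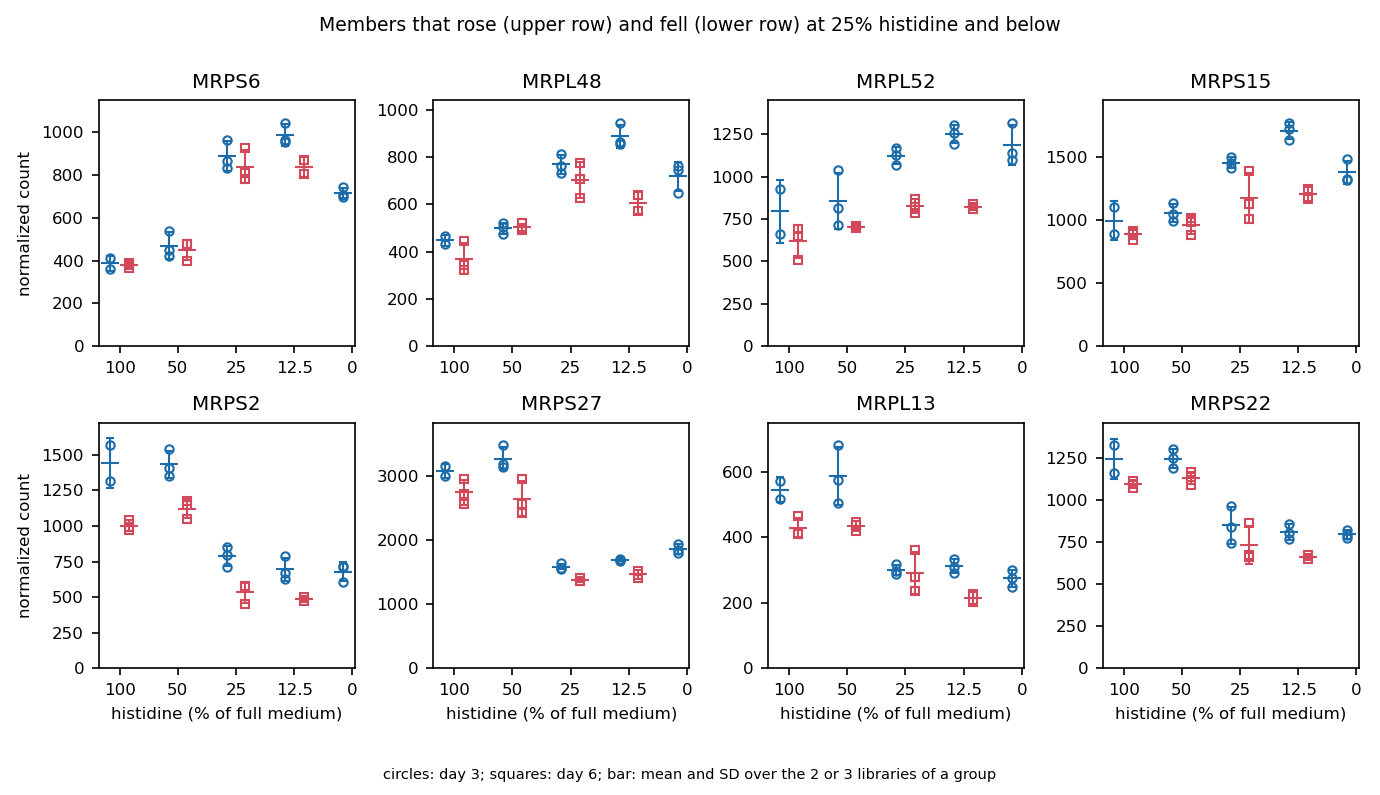
Normalized counts of 4 members that rose (upper row) and 4 that fell (lower row) in all 5 comparisons of 25% and below with 100%, by histidine level, with circles for day 3, squares for day 6, and the mean and SD of each group of 2 or 3 libraries. From 50% to 25% each of the 8 passed the test on both days except MRPL52 on day 6, for example from between 421.2 and 540 to between 832.1 and 964.5 for MRPS6 on day 3.

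Neighbouring levels were also compared. Between 50% and 25% on day 3, 10 members rose and 21 fell (12.8% and 26.9%), against 11.4% and 12.5% of all genes. MRPS6 rose by 0.92, MRPL48 by 0.62, MRPL39 by 0.49 and MRPS15 by 0.46, and MRPS27 (-1.04, SE 0.069, adjusted p = 8.41e-12), MRPL13 (-0.95), MRPS2 (-0.86) and MRPS28 (-0.85) fell. The share of members that fell exceeded that of all genes, and the share that rose was near it. This split depended on the scaling, since 18 rose and 16 fell with libraries scaled to the same total.

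From 25% to 12.5% on day 3, 5 members rose and 1 fell, against 5.41% and 2.81% of all genes (3 and 2 with libraries scaled to the same total). MRPL54 rose by 0.68 (adjusted p = 0.00344), MRPS28 by 0.46, MRPS7 by 0.42 and MRPL51 by 0.34, and MRPS25 fell by 0.78 (adjusted p = 0.0341). MRPS28, which had fallen at 25%, thus read 368.1, 390 and 410.7 at 12.5%, above its 3 libraries at 25%. The count was 2 without replicate 2 of 25%, and 3 without replicate 3 of 25% or replicate 3 of 12.5%. Without replicate 2 of 25% MRPS28 had an adjusted p of 0.1 and MRPL51 of 0.0602, without replicate 3 of 25% MRPL51 had 0.068, and without replicate 3 of 12.5% MRPS28 had 0.0703. MRPS25 lost its call with any of the 3 libraries of 25% left out (0.107, 0.0675 and 0.0905) and in the same way with replicate 1 (0.134) or 3 (0.0984) of 12.5%. With library position as a term 1 member was called in place of 6, MRPS25, and none of the 4 rises named passed: adjusted p was 0.101 for MRPL54, 0.141 for MRPS7, 0.363 for MRPS28 and 0.588 for MRPL51.

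From 12.5% to 0% on day 3, 14 members fell and 4 rose (17.9% and 5.13%), against 12.5% of all genes lower and 8.5% higher. Quantile scaling gave 10 and 6. MRPS18C fell from 1105, 1106 and 1260 to 664.4, 691.6 and 712.3 (log2 -0.74, SE 0.125, adjusted p = 5.87e-05), back to the range of the libraries at 100% (648.4 and 766.2). MRPL11 fell by 0.59, MRPL2 by 0.52 and MRPS6 by 0.46. MRPS25 rose by 0.71 (adjusted p = 0.027), MRPL4 by 0.33 (0.0192), MRPL3 by 0.29 and MRPS21 by 0.25 (0.0247). The count was 11 without replicate 1 of 12.5%, and 7 with library position as a term, where MRPL4 (0.0537), MRPS21 (0.0549) and MRPS6 (0.0572) did not pass. Without that library the adjusted p was 0.112 for MRPS25 and 0.0682 for MRPS21. MRPS25 did not pass without replicate 3 of 12.5% (0.0768) or replicate 1 (0.0657) or 2 (0.15) of 0%, MRPL4 without replicate 2 of 12.5% (0.154) or replicate 1 of 0% (0.0626), and MRPS21 without replicate 2 of 12.5% (0.0857) or replicate 1 of 0% (0.127). From 12.5% to 0%, MRPS6 and MRPS18C thus moved back towards 100%, as did MRPL3.

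On day 6 at 25% histidine, 11 members were higher and 14 lower than at 100% (14.1% and 17.9%), against 11% and 9.24% of all genes, with a median of 0 (all genes -0.02). MRPS6 read 925.5, 809.4 and 782.5 against 364.5, 378.5 and 390.6 (log2 1.15, SE 0.102, adjusted p = 3.59e-09), and MRPL48 775.8, 625.1 and 705.3 against 342.1, 446.5 and 323.2 (0.93, SE 0.108). MRPL18, a large subunit protein of bacterial descent, read 1908, 1369 and 1643 against 1165, 1208 and 1080 (0.5, SE 0.094). In these 3 genes every library at 25% was above every library at 100%. MRPL52 was higher by 0.43 (adjusted p = 0.0131) and MRPS18A by 0.24 (adjusted p = 0.041).

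The falls at 25% on day 6 were led by MRPS27, at 1364, 1373 and 1414 against 2960, 2727 and 2563 (log2 -0.99, SE 0.069, adjusted p = 4.41e-11), and MRPS2, at 572.6, 579.9 and 451.3 against 973.4, 1043 and 988.9 (-0.91, SE 0.106). The groups of both genes did not overlap. MRPS22 (-0.59), MRPL13 (-0.58), MRPL3 (-0.54) and MRPL12 (-0.54) were lower as well, and MRPL11 (-0.27), MRPS12 (0.07), MRPS18B (-0.15), MRPS18C (0.34, adjusted p = 0.0518) and MRPS30 (0.19) did not pass. Without replicate 2 of 25%, the library with the muscle transcripts, 12 members were higher and 13 lower, and without both libraries that stood apart (replicate 3 of 100% and of 50%) 9 were higher and 12 lower. MRPL52 did not pass without replicate 1 of 100% (0.121) or of 25% (0.055). MRPS18A did not pass without replicate 1 (0.0714), 2 (0.0537) or 3 (0.16) of 100%, without replicate 1 of 25% (0.293), without both libraries that stood apart (0.163) or with library position as a term (0.22), with a range of 0.0176 to 0.293.

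At 12.5% on day 6 the balance was turned downward, with 7 members higher and 18 lower (8.97% and 23.1%) against 10.8% and 11.1% of all genes, and a median of -0.05 (all genes 0). MRPS6 read 804.7 and 871.9 (log2 1.15, SE 0.114, adjusted p = 2.34e-08) and MRPL48 572.6 and 637.5 (0.72, SE 0.121), all above the 3 libraries at 100%. MRPL18 (0.49), MRPS15 (0.45), MRPS31 (0.43), MRPL52 (0.43) and MRPL51 (0.3) were the other 5. The rises of MRPL18 and MRPS15 are those of proteins of bacterial descent, and MRPS31, MRPL51 and MRPL52 are specific to mitochondria.

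MRPS2 read 500.8 and 473.7 at 12.5% on day 6 against 973.4, 1043 and 988.9 (log2 -1.04, SE 0.118, adjusted p = 2.39e-07), and MRPL13 227.5 and 202.9 against 410.8, 463.9 and 412.4 (-0.99, SE 0.15). MRPS27 read 1521 and 1413 (-0.9, SE 0.077, adjusted p = 1.52e-09). In all 3 genes both restricted libraries were below every library at 100%. MRPS22 (-0.73), MRPS5 (-0.67), MRPL12 (-0.64), MRPL3 (-0.57) and MRPL4 (-0.56) followed, and MRPL11 (-0.13), MRPS12 (0.18), MRPS18A (0.03), MRPS18B (-0.17), MRPS18C (0.31) and MRPS30 (0.21) did not pass. With only 2 libraries at 12.5%, the count was 19 without replicate 1 and 14 without replicate 2, where the lone library was assumed to vary like the other groups. MRPS15 (0.0546), MRPL52 (0.15) and MRPL51 (0.0918) did not pass without replicate 1, MRPS31 (0.0706), MRPL52 (0.105) and MRPL51 (0.172) did not without replicate 2, and neither did MRPL52 (0.161) and MRPL51 (0.121) without replicate 1 of 100% or MRPL51 without replicate 3 of 100% (0.0644). MRPL52 (0.0558) and MRPL51 (0.066) did not pass with library position as a term.

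On day 6, from 50% to 25%, there were 8 members higher and 21 lower (10.3% and 26.9%), against 10.6% and 10.3% of all genes. MRPS6 rose by 0.9, MRPL48 by 0.48, MRPS31 by 0.39 and MRPL18 by 0.39, and MRPS2 (-1.07, SE 0.106), MRPS27 (-0.93), MRPL30 (-0.72, adjusted p = 0.0197) and MRPS25 (-0.71, adjusted p = 0.0274) fell. MRPL30 did not pass without replicate 2 (0.068) or 3 (0.0611) of 50% or replicate 2 of 25% (0.0803). MRPS25 did not pass without replicate 2 of 50% (0.113) or replicate 3 of 25% (0.165, log2 -0.45). With library position as a term neither MRPL30 (0.138) nor MRPS25 (0.25) did, and 19 members were called in place of 29. Between 25% and 12.5% on day 6, 0.204% of all genes rose and 0.67% fell, and 0 members passed limma's test, with 5 at an unadjusted p under 0.05. Without replicate 3 of 25% 1 member passed.

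**Figure D3:**
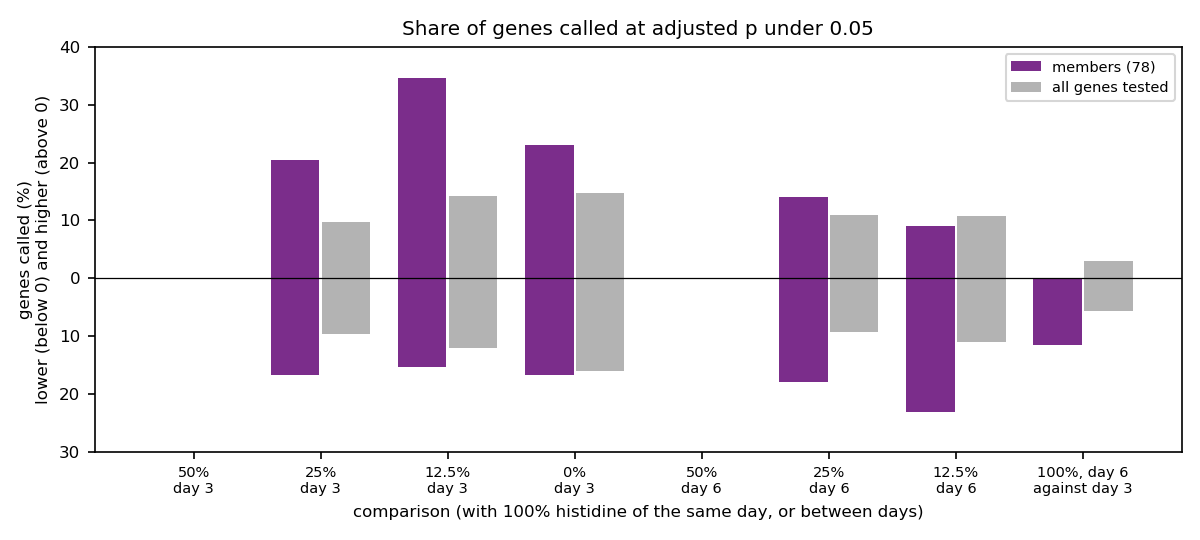
Share of the 78 members (purple) and of all 22994 tested genes (grey) called higher (above 0) and lower (below 0) at an adjusted p under 0.05 in each comparison with 100% histidine and between the days. The upward share of members is largest at 12.5% on day 3 (34.6%) and is 8.97% at 12.5% on day 6, where 23.1% were lower.

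The 5 comparisons of 25% and below with 100% called 51 members at least once and 27 never, and 0 members were called in opposite directions. That is 65.4% of members called at least once, against 47.2% of all tested genes, of which 3% were called in opposite directions. Within each day these comparisons share the libraries at 100%, so they are not independent of each other. In all 5, MRPS6, MRPL48, MRPS15 and MRPL52 were higher, and MRPL3, MRPL10, MRPL12, MRPL13, MRPS2, MRPS5, MRPS22 and MRPS27 were lower. These are 5.13% and 10.3% of the members, where 3.31% of all genes were higher and 3.16% lower in all 5. All genes again include weakly expressed ones, and no set of like level was compared. MRPL10 and MRPL12 form the stalk of the large subunit together. MRPL10 read 1201, 1094 and 1133 at 25% on day 3 against 1545 and 1466, and 1060 and 903.1 at 12.5% on day 6 against 1230, 1349 and 1237. It was lower by 0.4 (SE 0.09, adjusted p = 0.00187) and 0.38 (SE 0.09, adjusted p = 0.00278). The 27 never called include MRPS14, MRPL9, MRPL19 and MRPL50, the 4 steadiest members, MRPL58, a release factor that was adopted into the large subunit, and MRPS36, which is not a ribosomal protein.

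The calls of both days, which share no library, were set side by side. At 25%, 8 members were higher on both days, 50% of those on day 3 and 72.7% of those on day 6, and 11 were lower on both, 84.6% and 78.6%. Over all tested genes 54.2% and 48.5% of the higher calls and 47.7% and 50.2% of the lower calls were shared. At 12.5%, 7 were higher on both, 25.9% of those on day 3 and 100% of those on day 6, and 11 were lower on both, 91.7% and 61.1%. Over all genes these shares were 52.7% and 69.2% of the higher and 55.8% and 60.4% of the lower calls. The share of day 3 rises found again at 12.5% was thus smaller among members than among all genes, and the share of day 3 falls larger, a difference that was not tested. Over the 78 members Pearson's r between the log2 differences of the 2 days was 0.87 at 25% and 0.87 at 12.5%, as a description across genes, which are not independent replicates and share their libraries. Over all tested genes, which reach down to the minimum value of 10, r was 0.23 and 0.37.

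**Figure D4:**
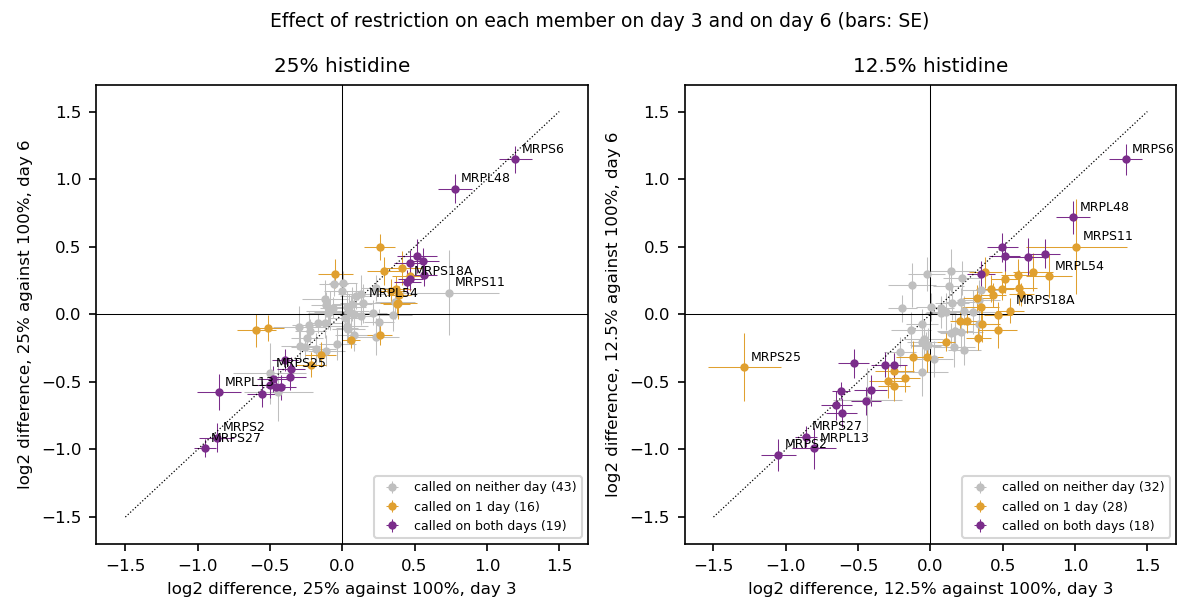
Log2 difference from 100% of each of the 78 members on day 3 (horizontal axis) and day 6 (vertical axis) at 25% and 12.5% histidine, with standard errors, coloured by the number of days on which the member was called. At 12.5% only 12 of the 78 members lie above the dotted line of equal values. The 27 called higher on day 3 all lie below it, a place that choosing them by a high day 3 value favours.

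The difference between the days was itself tested. At 25% it was higher on day 6 for 2.71% of all genes and lower for 2.01%, and 1 of 78 members passed, MRPS18B. At 12.5% it was higher for 1.28% of all genes and lower for 2.36%, and 4 members passed, all lower on day 6: MRPS18A, MRPS18B, MRPL38 and MRPL21. The share of members is 5.13%, and 12 of 78 members had a difference above 0 (median -0.2, all genes -0.01). These differences share their libraries and are not independent.

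MRPS18A and MRPS18B, with MRPS18C, are the 3 human relatives of bacterial S18, and the first of them sits in the large subunit. MRPS18A read 1668, 1483 and 1682 at 12.5% on day 3 against 1053 and 1145 at 100%, and 1033 and 1124 at 12.5% on day 6 against 1075, 1096 and 1003. Its libraries at 12.5% were thus above 100% on day 3 and overlapped it on day 6 (difference of log2 differences -0.52, SE 0.132, adjusted p = 0.0242). MRPS18B read 2029, 1745 and 1720 against 1347 and 1565 on day 3, and 1313 and 1276 against 1472, 1581 and 1337 on day 6, above on day 3 and below on day 6 (-0.5, SE 0.124, adjusted p = 0.0191). At 25% its difference between days was -0.41 (SE 0.117, adjusted p = 0.0403).

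MRPL38, a mitochondria-specific protein of the large subunit, read 2484, 2341 and 2361 at 12.5% on day 3 against 1433 and 1676, and 1671 and 1508 on day 6 against 1398, 1385 and 1520 (-0.48, SE 0.123, adjusted p = 0.0261). MRPL21, of bacterial descent, read 1244, 1140 and 1194 against 799 and 932.5 on day 3, and 857.8 and 785.3 against 840.5, 811.5 and 823.2 on day 6 (-0.47, SE 0.135, adjusted p = 0.0492). In both genes the groups were apart on day 3 and overlapped on day 6. Their calls depended on single libraries: without replicate 1 of 100% on day 3 none of the 78 passed at 12.5% and MRPS18A was at an adjusted p of 0.137, MRPS18B at 0.161, MRPL38 at 0.198 and MRPL21 at 0.284, while without replicate 3 of 100% 7 passed. Without replicate 1 of 12.5% on day 3 0 passed. The count was 1 without replicate 2 of 100%, or either library of 12.5%, on day 6, and 2 without replicate 1 or 3 of 100% on day 6 or replicate 3 of 12.5% on day 3. None of the 4 passed with library position as a term (adjusted p 0.0779 to 0.132), where 1 other member did.

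**Figure D5:**
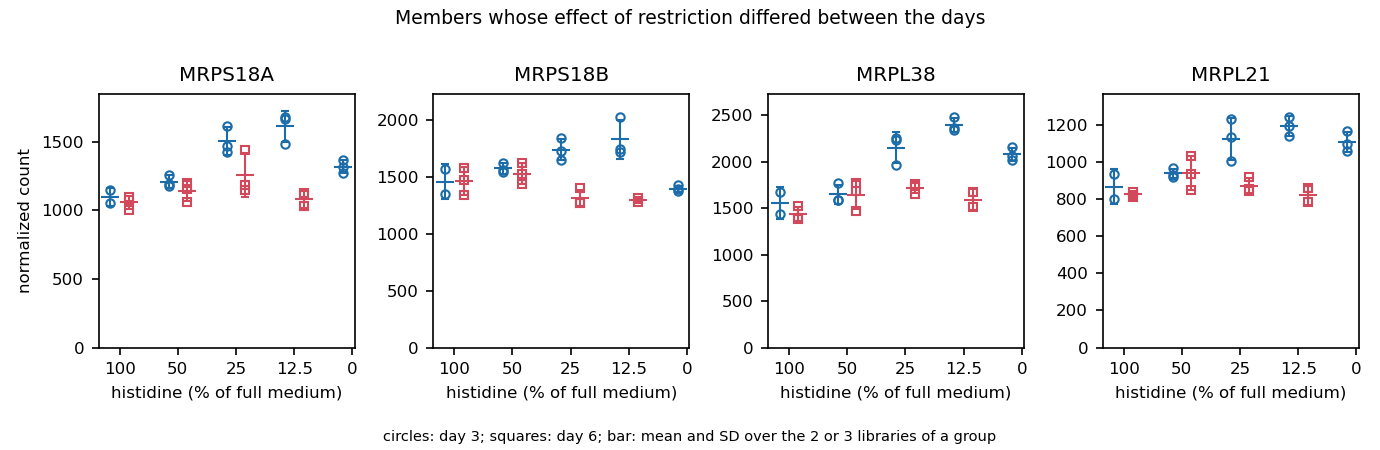
Normalized counts of the 4 members whose difference from 100% at 12.5% histidine was not the same on both days, by histidine level, with circles for day 3, squares for day 6, and the mean and SD of each group of 2 or 3 libraries. On day 3 the values at 12.5% lie above those at 100% (for MRPL21 1140 to 1244 against 799 and 932.5), and on day 6 they overlap those at 100% in all but MRPS18B, where they lie below.

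At 100% histidine, 9 members were lower on day 6 than on day 3 and 0 were higher (11.5% and 0%), against 5.73% and 2.93% of all genes. Only 8 of 78 had a log2 difference above 0, and the median was -0.18 (all genes 0.02). MRPL16 read 947.8, 1019 and 865.8 on day 6 and 1281 and 1621 on day 3 (log2 -0.61, SE 0.107, adjusted p = 0.000396), with no overlap. MRPS28 (-0.55), MRPS2 (-0.52) and MRPS34, a small subunit protein specific to mitochondria (-0.47), followed. This count rests on the 2 libraries of day 3: without replicate 3 it was 0 and without replicate 1 it was 14, and it was 4 without replicate 1 of day 6. Without replicate 3 of day 3 the values were -0.44 for MRPL16 (adjusted p = 0.0606), -0.43 for MRPS28 (0.231), -0.39 for MRPS2 (0.195) and -0.33 for MRPS34 (0.243), and without replicate 3 of day 6 MRPS28 had an adjusted p of 0.0545. With library position as a term the count was 2, and MRPS28 (0.152) and MRPS34 (0.0589) did not pass.

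Large and small subunit genes moved in both directions. At 12.5% on day 3, 17 of 51 large subunit genes were higher and 7 lower, and 10 of 26 small subunit genes were higher and 5 lower. At 0% on day 3 it was 11 and 9 of 51, and 7 and 4 of 26. At 12.5% on day 6 it was 4 and 13 of 51, and 3 and 5 of 26. By descent, 13 of 44 genes with a bacterial counterpart were higher and 8 lower at 12.5% on day 3, and 14 of 32 mitochondria-specific genes were higher and 4 lower. At 12.5% on day 6 these counts were 3 and 12 of 44, and 4 and 6 of 32. Over all genes 14.2% were higher and 12% lower at 12.5% on day 3, 14.8% and 16.1% at 0%, and 10.8% and 11.1% at 12.5% on day 6. The lower share at 0% on day 3 was near that of all genes in the large (17.6%) and small subunit (15.4%). The higher share at 12.5% on day 6 was 7.84% and 11.5%. No difference between these classes was tested.

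The cores printed above were set beside the calls. At 25% on day 3 the YY1 core was in the promoters of 6 of 15 higher members, 0 of 10 lower members and 13 of 44 members not called. At 12.5% on day 3 it was in 9 of 26, 0 of 10 and 10 of 33, and at 0% in 5 of 17, 0 of 11 and 14 of 41. On day 6 it was in 4 of 10, 1 of 12 and 14 of 47 at 25%, and in 1 of 7, 2 of 16 and 16 of 46 at 12.5%. The ETS core was in 2 of 15, 4 of 10 and 5 of 44 at 25% on day 3. It was in 4 of 26, 3 of 10 and 4 of 33 at 12.5%, and in 3 of 17, 4 of 11 and 4 of 41 at 0%. On day 6 the ETS core was in 3 of 10, 3 of 12 and 5 of 47 at 25%, and in 2 of 7, 4 of 16 and 5 of 46 at 12.5%. Among the 8 members lower in all 5 comparisons, MRPL3 and MRPS22 hold the ETS core, and among the 4 higher in all 5 MRPL52 does. These counts describe the letters in the promoters, and no test was made on them.

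Neighbouring genes, chosen after their values were seen, were read beside the members whose reads they may share. SLC5A3, an inositol transporter with exons in common with MRPS6 on the same strand, was not called (log2 -0.36 at 25% and 0 at 0% on day 3, 0.04 at 12.5% on day 6), while MRPS6 was higher in each. MTBP, on the strand opposite to MRPL13, was lower at 0% on day 3 (-1.07, adjusted p = 0.00155) but not at 25% (0.2), where MRPL13 was. SARS2, opposite MRPS12, was lower at 25% on day 3 (-0.47, adjusted p = 0.00667), where MRPS12 was at 0.07. TCP1, which shares a start region with MRPL18, was lower at 12.5% on day 6 (-0.18, adjusted p = 0.0078), where MRPL18 was higher. PELI3, opposite MRPL11, was lower at 0% on day 3 (-1.45, adjusted p = 0.000266), where MRPL11 was at -0.42. MRPS31P5 was higher by 0.69 at 25% on day 3 (adjusted p = 0.000174) and 0.52 at 12.5% on day 6 (0.00285), where MRPS31 was too, and by 0.66 at 0% on day 3 (0.000147), where MRPS31 was not called (0.24).

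The other proteins of the mitochondrial ribosome, listed under other symbols, also split. In the lists that follow, called shares are to be read against 14.8% of all genes higher and 16.1% lower at 0% on day 3, and 10.8% higher and 11.1% lower at 12.5% on day 6. Of 5, 3 were higher and 1 lower at 0% on day 3, and 2 and 1 at 12.5% on day 6. AURKAIP1, of the small subunit, rose from 1440 ± 216.9 (SD, n = 2) to 2429 ± 129.5 (n = 3) at 0% on day 3 (log2 0.76, SE 0.103, adjusted p = 1.54e-06) and by 0.51 at 12.5% on day 6. GADD45GIP1, of the large subunit, rose by 0.48 at 0% on day 3, and PTCD3, of the small subunit, by 0.23 at 12.5% on day 6. DAP3, a GTP-binding protein of the small subunit, fell by 0.29 at 0% on day 3 and from 3121 ± 159 (n = 3) to 1899 ± 6.887 (n = 2) at 12.5% on day 6 (log2 -0.72, SE 0.087, adjusted p = 6.81e-07).

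Of 30 assembly and ribosomal RNA modification factors, 7 were higher and 5 lower at 0% on day 3, and 1 higher and 6 lower at 12.5% on day 6 (medians -0.1 and -0.17). NOA1, a GTPase needed to assemble the small subunit, fell from 1298 ± 49.86 (n = 2) to 675.2 ± 65.02 (n = 3) at 0% on day 3 (log2 -0.95, SE 0.096, adjusted p = 1.24e-08) and by 0.77 at 12.5% on day 6. The pseudouridine synthases RPUSD4 (-0.85 and -0.78) and RPUSD3 (-0.33 and -0.69) were lower in both. YBEY, an endoribonuclease, was higher by 1.15 and 0.4. Of 16 translation factors, 1 was higher and 3 lower at 0% on day 3 and 0 and 3 at 12.5% on day 6. OXA1L, which inserts the products of the mitochondrial ribosome into the inner membrane, was lower in both (log2 -0.64, SE 0.072, and -0.58, SE 0.072). TACO1, an activator of COX1 translation, was at -0.41 and -0.54, both called. MTRFR, a ribosome rescue factor, was lower at 0% on day 3 (-0.48). TUFM, the elongation factor Tu, was lower at 12.5% on day 3 (-0.19, adjusted p = 0.0471) and day 6 (-0.24, adjusted p = 0.0165) and did not pass elsewhere (-0.17 at 25% and 0 at 0% on day 3, -0.05 at 25% on day 6, 0.05 and 0.07 at 50%).

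The mitochondrial aminoacyl-tRNA synthetases and the subunits of the glutaminyl-tRNA amidotransferase, 20 genes, had 11 called lower and 1 higher at 25% on day 3, 9 and 1 at 12.5%, and 6 and 1 at 0%, with medians of -0.32, -0.23 and -0.16. Over all genes 9.72%, 12% and 16.1% were lower and 9.81%, 14.2% and 14.8% higher. At 12.5% on day 6 it was 5 lower and 1 higher. HARS2, which charges the mitochondrial histidine tRNA, was lower at 25% (823.6 ± 39.16, n = 3, against 1033 ± 33.95, n = 2; log2 -0.33, adjusted p = 0.0355) and 12.5% on day 3 (-0.36, adjusted p = 0.014). It did not pass at 0% (-0.24, adjusted p = 0.11), at 50% (-0.04 on day 3, 0.01 on day 6) or on day 6 at 25% (-0.14) and 12.5% (-0.01). TARS2, the threonyl enzyme, was lower at 0% on day 3 and 12.5% on day 6 (-0.79 and -0.5), and PARS2, the prolyl enzyme, at 0% on day 3 (-0.56). QRSL1 and GATC, both of the amidotransferase, went apart: QRSL1 was higher by 0.5 and 0.47 and GATC was at -0.24 and -0.34, each called.

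Among 17 genes of mitochondrial transcription and RNA stability, 3 were higher and 3 lower at 0% on day 3, and 1 and 2 at 12.5% on day 6. The RNA helicase SUPV3L1 was lower in both (-0.37 and -0.55), SLIRP, a partner of LRPPRC, was higher (0.36 and 0.52), and HSD17B10, a subunit of mitochondrial RNase P, rose by 0.43 and PNPT1, a polynucleotide phosphorylase, by 1.32 at 0% on day 3. ELAC2, the tRNA 3′ processing enzyme, was at -0.27 at 12.5% on day 6 (adjusted p = 0.0143). Among the mitochondrially encoded RNAs the median of the 13 messenger RNAs was -0.58 at 25% and -0.73 at 12.5% on day 3, and 0.07 at 0%. Of these 1 was called in the 5 comparisons, MT-ND5 at 12.5% on day 3 (-1.02, SE 0.356, adjusted p = 0.0436), and the 12S ribosomal RNA gene MT-RNR1 was lower at 25% (-0.74, adjusted p = 0.0182) and 12.5% (-0.95, adjusted p = 0.00227) on day 3, at 18420 ± 2952 and 15870 ± 2325 (n = 3 each) against 30530 ± 3565 (n = 2). The 16S gene MT-RNR2 was not called. How these RNAs, with short or no poly(A) tails, were captured is not given in the sources used here.

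Of 13 regulators of nuclear genes for mitochondria, 2 were higher and 5 lower at 0% on day 3, and 3 and 2 at 12.5% on day 6. MYC, a transcription factor that raises ribosome production, fell from 9679 ± 1181 (n = 2) to 3337 ± 227.8 (n = 3) at 0% on day 3 (log2 -1.53, SE 0.081) and was lower in each comparison of 25% and below (-1.69 and -2.21 at 25% and 12.5% on day 3, -0.96 and -1.69 on day 6), but not at 50% (0.03 and -0.04). PPARGC1B, a coactivator of mitochondrial genes, was lower at 0% on day 3 (-1.06) and 12.5% on day 6 (-0.84), and TFE3, a factor of lysosomal and metabolic genes, higher (1.01 and 1.1). NRF1 was higher at 12.5% on day 3 (0.51) and at both levels on day 6 (0.56 and 0.57), and YY1 at 12.5% on day 3 (0.23, adjusted p = 0.023) and 25% on day 6 (0.22, adjusted p = 0.0202). NRF1 and YY1 are named because their cores were searched above, after their values were seen. Whether any of these changes bears on the members was not tested.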

How the data were processed

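Total RNA was isolated on spin columns and 1 µg per library went into strand-specific Illumina libraries made by a service provider, per the labels' protocols. The authors deposited 1 table of gene signal values, which are DESeq2-normalized counts. The submitters' processing notes name FastQC 0.11.9, kallisto 0.50.1, DESeq2 1.44.0 and the build GRCh38, but no source at hand states each tool's role, the annotation or the use of strand. The normalized totals were 18.44 to 21.38 M per library (median 19.86 M). At a tolerance of 0.05 only 54.8% to 75.7% of values came out as whole reads, so reads were not recovered, depth is unknown, and no count model or counting interval is given. No 2 libraries held identical values.

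Samples were grouped by the day and histidine level of their labels. From the deposited values, log2(value + 1) of the 22994 genes with at least 10 in at least 2 libraries was fitted in limma 3.58.1 (R 4.3.3, statmod 1.5.0), with all 25 libraries and 9 groups in 1 fit, a mean trend and robust moderation, and Benjamini-Hochberg adjustment over all tested genes (threshold 0.05). The procedure was tested on simulated data. Members and gene lists were chosen with earlier results of these data known. Genes named are the 8 largest called rises and falls at 0% on day 3 and 12.5% on day 6, 4 elsewhere and 4 per difference between days, MRPL3, MRPL11, MRPL12, MRPS12, MRPS18A, MRPS18B, MRPS18C and MRPS30 in every comparison with 100%, 3 per companion list, HARS2, TUFM and MYC, and the 4 largest and smallest group ratios; others are described as chosen later. Deviations of same-numbered replicates from their group means had a median r of 0.0013 (92 pairs, from -0.106 to 0.192, 1 pair over 0.1). For other numbers it was 0.0004 (185 pairs, 1 over 0.1). Numbers were therefore not used as pairs in the main fit. Over groups of 2 or 3 libraries this check cannot exclude shared cultures or batches. Alternatives were other pseudocounts (0.5 and 10), no filter, a filter of 50, total-sum and quantile scaling, and only the compared groups. Further ones were a replicate block, the library number modulo 8 as a term (library position) and no robust moderation. Library position was inferred from the order of the samples, is named by no label, and takes degrees of freedom from the fit. Each library was also left out, for comparisons that use its group. Chosen after seeing the data, both day 6 libraries that stood apart were left out.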

Additional observations from a re-analysis of the deposited data

Results flagged for a closer look

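The difference from 100% histidine was not the same on both days for 4 members, by limma's test of the difference (day 6 minus day 3, adjusted over all tested genes). At 12.5% it was -0.52 for MRPS18A, a large subunit protein (SE 0.132, adjusted p = 0.0242), -0.50 for MRPS18B, of the small subunit (SE 0.124, adjusted p = 0.0191), -0.48 for MRPL38 (SE 0.123, adjusted p = 0.0261) and -0.47 for MRPL21 (SE 0.135, adjusted p = 0.0492), both of the large subunit. At 25% it was -0.41 for MRPS18B (SE 0.117, adjusted p = 0.0403). The 4 members called at 12.5% are 5.13% of the 78, against 3.64% of all tested genes. At 25% the share was 1.28%, against 4.72% of all tested genes. Each of these members was higher than 100% in every library of that level on day 3 and did not pass the test against 100% at that level on day 6. These 5 calls were lost in 7 to 15 of their alternatives. Those were the 11 other settings and the fits that left out 1 library of the groups compared. Over these the differences lay between -0.61 and -0.30. The calls at 12.5% depended on replicate 1 of 100% on day 3, without which 1 library was left in that group. They depended on other libraries too. At 12.5%, 0 members passed without replicate 1 of 12.5% on day 3, and 1 passed without replicate 2 of 100% on day 6. With library position as a term 1 member passed, which was none of these 4. No sign changed.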

How the results depend on the processing

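Of 110 calls of named members, 68 held under all 11 alternative settings and every fit that left out 1 library of a compared group. In at least 1 of these 42 were lost, and 0 reversed. Each of the 25 libraries was left out once, but only comparisons that use its group were then read. Left out singly, replicate 1 of 100% on day 3 lost 15 named calls and replicate 3 lost 12. With library position as a term the members called were 19 at 25% and 20 at 0% on day 3, 1 from 25% to 12.5%, 7 from 12.5% to 0%, 19 from 50% to 25% on day 6, 2 between the days at 100%, and 0 and 1 for the difference between days at 25% and 12.5%; the cause was not tested. Total-sum scaling gave 4 between the days at 100% and 2 for the difference at 25%, and quantile scaling 2 for the latter. That difference had 0 with no filter and 0 with only the compared groups, where the difference at 12.5% had 2. Without both day 6 libraries that stood apart the difference at 12.5% had 2. With 1 library left out the counts ran from 23 to 30 at 25%, 26 to 38 at 12.5% and 21 to 32 at 0% on day 3, 21 to 25 at 25% and 14 to 23 at 12.5% on day 6. From 50% to 25% they ran from 27 to 30 on day 3 and 23 to 29 on day 6, from 25% to 12.5% from 2 to 5 on day 3 and 0 to 1 on day 6, and from 12.5% to 0% from 11 to 16. Between the days at 100% they ran from 0 to 14, for the difference between days from 0 to 2 at 25% and 0 to 7 at 12.5%, and at 50% they stayed at 0. The replicate block gave 30, 37 and 34 members at 25%, 12.5% and 0% on day 3, 26 and 24 at 25% and 12.5% on day 6, 7 between the days and 1 and 3 for the differences between days. Among named calls it ended those of MRPS18C at 25% on day 3 (adjusted p = 0.0596) and MRPL21 in the difference at 12.5% (0.0565). Depth is unknown, so what it limits cannot be given.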
